A study of Mus musculus with 147 samples.

Results

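The clustered histone genes were the 67 of 31053 genes of the deposited UMI table whose symbol starts with Hist1h, Hist2h, Hist3h or Hist4h. They comprised 6 H1, 18 H2A, 18 H2B, 12 H3 and 13 H4 genes. Hist1 held 54 of them (chr13:21715763-23934851 on GRCm38/mm10), Hist2 held 10 (chr3:96219865-96270132), Hist3 held 2 (chr11:58948920-58956830) and Hist4 held 1 (chr6:136801553-136804415). The study sequenced single wild-type cells of the mouse male germline and gonad at 28 time-points from embryonic day (E) 6.5 through postnatal day (PND) 35 to adult testis, by STRT-seq, a 3′-end method based on Smart-seq2 with unique molecular identifiers (UMIs). The animals were offspring of C57BL/6 females and BVSC males, which carry the transgenes Prdm1-mVenus (Blimp1) and Dppa3-ECFP (Stella), so every group compared here carried the same reporters. Germ cells were sorted by the reporters from E8.5 to E18.5. The authors state that ECFP alone was used from E14.5, whereas the cell names give BVSC for E18.5 replicate 1. After birth germ cells were picked by morphology. They were sorted by DNA content at PND30 and, for part of the pools, at PND14 (replicate 1 into 2N and 4N). Cells were recorded as male from E11.5 and in E10.5 replicate 3, and no sex was recorded for E6.5 to E9.5 and the other E10.5 pools. The unit compared was a pool, meaning all cells of 1 time-point and 1 replicate, and cells within a pool were summed by cell class and scaled to counts per 1000000 UMIs (CPM).

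Most clustered histone genes encode replication-dependent histones, which package newly made DNA and are transcribed mainly while DNA is being copied. Their mRNAs end in a conserved stem-loop that is bound by the stem-loop binding protein (Slbp) and usually lack a poly(A) tail, which sets them apart from other mRNAs. Male germ cells divide as primordial germ cells, stop dividing in the fetal testis, resume division as spermatogonia after birth and then enter meiosis, after which spermatids replace most histones. Hist1h2ba (TH2B), Hist1h2aa (TH2A) and Hist1h1t (H1t) encode testis variants of H2B, H2A and H1 that are known for a role in meiosis and spermatid chromatin. Because complementary DNA was primed with oligo(dT), the counts report transcripts with a poly(A) tail or an internal run of A. Rankings of members and shares of histone types below are those of counted UMIs and include differences in capture between genes. A difference in poly(A) tails between groups would also enter the levels of a gene, and this was not tested.

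The stem-loop was found after the stop codon in 46 of the 67 members in the GENCODE M21 annotation. It was searched as a stem of 6 paired bases starting with GG around a loop of 4 bases. The form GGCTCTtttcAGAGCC occurred in 26 members, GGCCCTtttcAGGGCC in 7 and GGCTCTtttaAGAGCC in 6. The sequences below are those of the members on which the results turn, with 5 flanking bases on each side and the paired stem bases in capitals.
Hist1h2ao: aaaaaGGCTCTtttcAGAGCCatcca
Hist1h2ag: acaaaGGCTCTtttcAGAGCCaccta
Hist1h3a: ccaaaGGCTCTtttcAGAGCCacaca
Hist1h2bp: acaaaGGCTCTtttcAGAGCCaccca
Hist1h4a: ccaaaGGCCCTtctcAGGGCCgccca
Hist1h1t: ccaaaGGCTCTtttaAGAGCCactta
Hist3h2a: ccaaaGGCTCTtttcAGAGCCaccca
The stems of Hist1h2ao, Hist1h2ag, Hist1h3a, Hist1h2bp and Hist3h2a were identical, Hist1h1t differed in its loop and Hist1h4a in both stem and loop.

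What follows the stem-loop differed among these members. The annotated transcript ran 31 bases past the stem-loop in Hist1h2ao, 23 in Hist1h2ag and 37 in Hist1h3a. It ran 38 bases past it in Hist1h2bp, 185 in Hist1h1t and 1643 in Hist3h2a. In Hist1h4a it ran a distance between those of Hist1h2bp and Hist1h1t. Each of these genes had the polyadenylation signal AATAAA near an annotated end, respectively 23, 27, 34 and 29 bases before the last base. The signal was searched in all annotated transcripts of a gene. Hist1h2bp has 2, so its signal may lie on another transcript than the one ending 38 bases past the stem-loop. Across the family, 15 members had AATAAA within 40 bases of the annotated end, 22 others ended within 100 bases of the stem-loop, 12 ran further, 15 were annotated only to the stop codon and 3 had no stem-loop found. Hist1h2ba and Hist1h2aa were annotated only to the stop codon, so their ends could not be classed. Hist2h2be was classed with the AATAAA group, with no stem-loop found and a signal 22 bases before an end that lay 2192 bases after the stop codon.

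Several members are near-identical copies, and the counting could have entered their shared reads under either gene or under both. Hist1h2ao and Hist1h2ap shared an exact run of 452 bases and had equal counts in 81.86% of the 10366 cells with a UMI of either. Their totals were 1669955 and 1669045 UMIs, with a Pearson correlation over cells of 0.999987. Hist1h2bq and Hist1h2br had equal counts in 88.06% of 4096 cells. Values of these pairs, of Hist1h4m and Hist1h4n and of Hist2h3c1 and Hist2h3c2 are therefore uncertain as single genes, and each pair counts as 2 members below. If the same reads entered both genes of a pair, the set sum and the share of H2A genes include them for both. Which of these held was not tested.

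The testis variant pair Hist1h2ba and Hist1h2aa is transcribed outward from a shared stretch at the distal end of the Hist1 cluster. Hist1h2ba lies at chr13:23933773-23934156 on the minus strand and Hist1h2aa at chr13:23934462-23934851 on the plus strand. The promoter windows below hold 250 bases before and 50 after the RefSeq start on GRCm38.p6, read along each gene's strand, at chr13:23934107-23934406 (minus) for Hist1h2ba, chr13:23761200-23761499 (minus) for Hist1h4a and chr13:21787238-21787537 (plus) for Hist1h2bp. They are shown because these genes had the highest levels in spermatocytes or spermatids, and capitals mark motifs on either strand. The motifs searched were the TATA box as TATAAA, the CCAAT box, the octamer of histone H2B promoters as ATGCAAAT, the cyclic AMP response element (CRE) as TGACGTCA, its shorter form TGACGT and a Myb-type motif as AACTGNC.
Hist1h2ba: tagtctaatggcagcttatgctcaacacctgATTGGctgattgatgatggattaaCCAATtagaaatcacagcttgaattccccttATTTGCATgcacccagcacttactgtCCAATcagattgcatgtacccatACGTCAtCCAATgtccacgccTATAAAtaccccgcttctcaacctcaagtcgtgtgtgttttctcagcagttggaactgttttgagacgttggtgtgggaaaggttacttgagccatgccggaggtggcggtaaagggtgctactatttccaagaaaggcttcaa
Hist1h4a: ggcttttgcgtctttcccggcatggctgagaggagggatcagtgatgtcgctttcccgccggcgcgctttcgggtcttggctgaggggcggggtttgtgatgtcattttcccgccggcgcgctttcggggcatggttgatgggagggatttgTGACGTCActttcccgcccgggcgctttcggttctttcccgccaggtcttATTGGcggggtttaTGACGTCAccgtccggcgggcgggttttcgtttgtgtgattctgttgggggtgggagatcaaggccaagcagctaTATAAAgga
Hist1h2bp: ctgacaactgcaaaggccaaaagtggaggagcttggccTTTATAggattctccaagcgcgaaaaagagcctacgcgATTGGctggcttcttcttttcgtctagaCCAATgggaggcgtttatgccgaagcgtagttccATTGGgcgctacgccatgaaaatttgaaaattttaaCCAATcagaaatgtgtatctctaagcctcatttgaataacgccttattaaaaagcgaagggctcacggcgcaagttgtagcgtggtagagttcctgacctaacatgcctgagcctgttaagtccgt
The Hist1h2ba window held the TATA box, the CCAAT box, the octamer and the short CRE but not the full CRE, and the overlapping window of Hist1h2aa held the same 4 motifs. The Hist1h4a window held the full CRE at 2 places. Of the 62 members with a RefSeq promoter, 85.5% held the CCAAT box against 37.4% of all 32851 promoters of this length, 56.5% held the TATA box against 13.6%, and 22.6% held the octamer against 1.74%. The full CRE was present in 6.45% of the members (Hist1h2ag, Hist1h2bj, Hist1h4h and Hist1h4a) against 1.79% of all promoters, and the short form, which every full CRE contains, in 27.4% against 7.51%. The Myb-type motif was in 12.9% of the members and 12.8% of all. These matches describe letters in a window and not bound sites.

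The 61 wild-type pools held between 15163519 and 197524235 UMIs, and the median kept cell held 284518 UMIs. Members took 6322566 of the 3511547402 UMIs. Clusters made without the histone and S-phase genes were called germ-like, spermatocyte-like, round spermatid-like or somatic-like from markers, and germ-like sums from E9.5 to PND14 held all 10 germ markers at summed levels between 1481 and 3998 CPM. All 23 somatic markers had a UMI somewhere in the germ-like sums of E15.5 to PND0, with a summed level from 115.5 to 1117 CPM, against 39.7 to 77.8 CPM at E11.5 to E12.5 and 5116 to 7823 CPM in somatic-like sums of E15.5 to E18.5. Replicate 1 of E17.5 stood apart because it held no germ-like cells by this rule, and adult replicate 1 and PND8 replicate 1 were led by unnamed clusters. All 96 cell barcodes were used by several libraries, and no 2 cells had the same profile. The authors state that each time-point had independent biological replicates. Nothing in the labels says that pools of a time-point came from separate litters, so p-values measure the spread between pools.

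**Figure D1:**
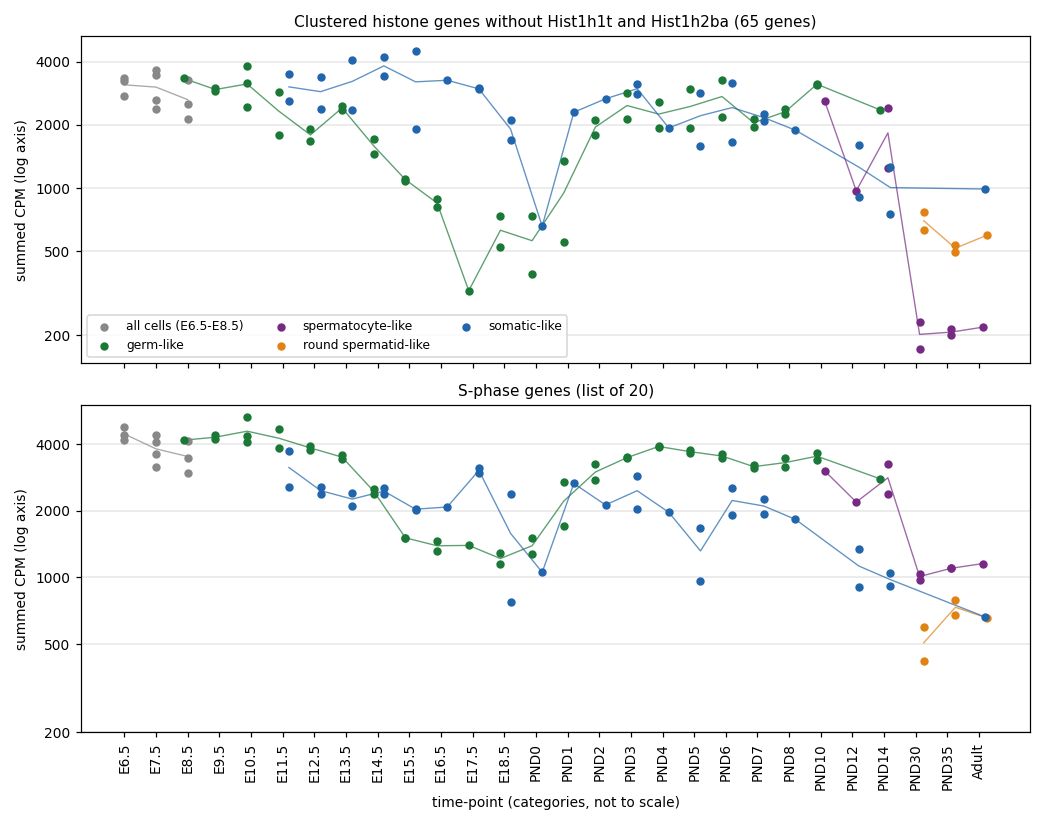
Summed level in CPM of the 65 clustered histone genes without Hist1h1t and Hist1h2ba (top) and of 20 S-phase genes (bottom) by time-point on a log axis, 1 point per pool, colours by cell class and lines through the means. Germ-like pools lie at a mean of 3055 CPM at E9.5 to E10.5, reach 325 CPM at the lowest in the fetal testis and lie at a mean of 2367 CPM at PND4 to PND7, and spermatocyte-like pools from PND30 on lie between 173 and 231 CPM.

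Without Hist1h1t and Hist1h2ba, the summed level of the other 65 members, Hist1h2aa included, was high in migrating germ cells and low in the late fetal testis. It was high again in spermatogonia and lowest in the spermatocyte-like pools of PND30, PND35 and adult replicate 2. A sum of 3056 CPM is a mean of 47.02 CPM per gene, and one of 734 CPM a mean of 11.3 CPM. The sum was 3056 ± 474 CPM in E6.5 to E7.5 embryos (SD, n = 7 pools, all cells), 2636 ± 579 at E8.5 (n = 3, all cells) and 3055 ± 501 in germ-like cells of E9.5 to E10.5 (n = 5). Germ-like pools of E13.5 held 2452 and 2361 CPM and those of E14.5 held 1717 and 1459 CPM. In the 9 pools of E15.5 to PND0 the lowest value was 325, the median 737 and the highest 1111 CPM. No pool of this window reached the lowest value at E14.5.

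The level returned within days of birth. The pools of PND1 held 1341 and 554 CPM, those of PND2 held 1796 and 2106 CPM and those of PND3 held 2819 and 2121 CPM. The 8 pools of PND4 to PND7 ranged from 1938 to 3278 CPM with a median of 2157 CPM, and all lay above every pool of E15.5 to PND1. The 3 spermatocyte-like pools of PND12 to PND14 held 971, 2408 and 1253 CPM, whereas the 5 of PND30, PND35 and adult held 173, 231, 214, 199.7 and 218 CPM. The only adult pool among the 5 was replicate 2. In adult replicate 1, 318 cells of an unnamed cluster, nearest to the spermatocyte markers with Leydig second, held 1255 CPM. Their somatic markers stood at 879 CPM, against 51.8 to 65.8 CPM in the 5 pools. Round spermatid-like pools held 631, 770.0, 538, 498 and 597 CPM, which did not overlap with the spermatocyte-like pools of the same ages. As a share of all UMIs the set took 0.305% at E9.5 to E10.5, 0.0734% at E15.5 to PND0, 0.237% at PND4 to PND7, 0.0207% in spermatocyte-like and 0.0607% in round spermatid-like cells of PND30 to adult. A sum alone does not separate fewer cells with transcripts from fewer transcripts per cell. Per cell, the 10th percentile of the histone sum lay between 135.7 and 752 CPM and the 90th between 505 and 1567 CPM over the germ-like pools of E15.5 to PND0, against 656 to 1405 and 3534 to 4968 CPM at E11.5 to E12.5.

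The S-phase list (20 genes such as Pcna, Rrm2 and the Mcm helicase genes) had its own course. Its sum was 4462 ± 476 CPM at E9.5 to E10.5, 1379 ± 130 CPM at E15.5 to PND0 and 3573 ± 294 CPM at PND4 to PND7, so it was low in the same window as the histone genes. In round spermatid-like cells it was 627 ± 136.09 CPM against 1075 ± 67.6 CPM in spermatocyte-like cells of the same ages, where the histone sum differed in the other direction.

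**Figure D2:**
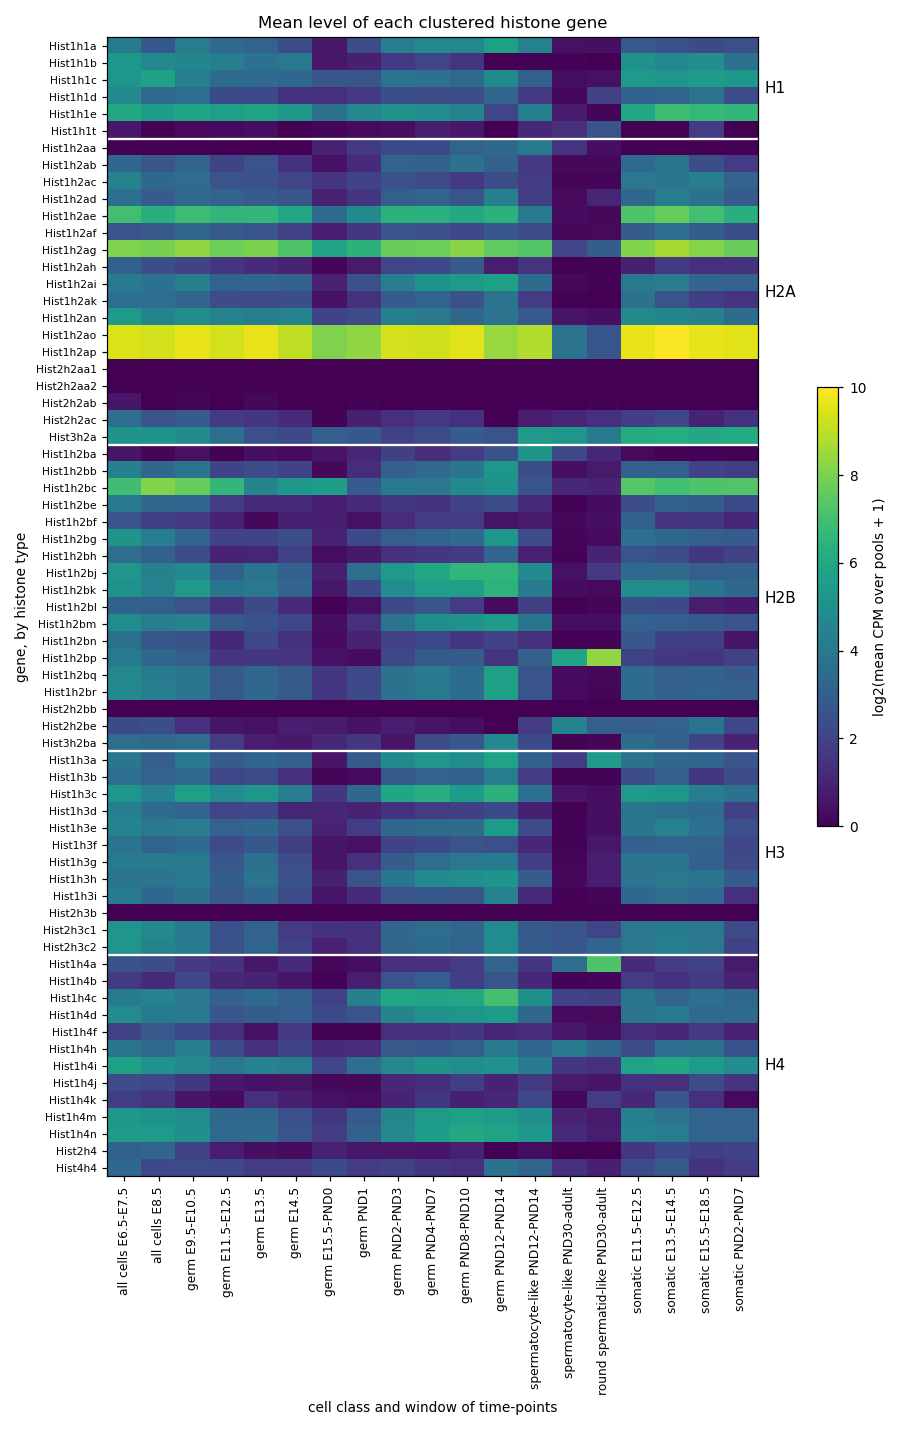
Mean level of each of the 67 members, log2(mean CPM + 1), in 19 windows of time and cell class, with rows ordered by histone type. The columns of E15.5 to PND0 and of spermatocyte-like cells from PND30 on are dark (low) for most members, and Hist1h2bp and Hist1h4a are bright (high) in round spermatid-like cells.

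A few H2A genes carried most of the UMIs of the set, with the copies Hist1h2ao and Hist1h2ap entered separately although they may hold the same reads. Hist1h2ao and its copy Hist1h2ap each had a mean of 557 CPM over pools, Hist1h2ag had 195, Hist1h2bc 73.4, Hist1h2ae 71.1, Hist1h1e 38.2, Hist1h3c 30.8, Hist1h2bj 27.7, Hist1h4n 26.7 and Hist1h4i 24.6 CPM. Together Hist1h2ao, Hist1h2ap and Hist1h2ag made up 55.8% of the sum at E6.5 to E7.5, 80.5% at E15.5 to PND0 and 3.03% in round spermatid-like cells. By histone type, H2A genes made up 84.5% of the germ-like sum at E15.5 to PND0, 68.5% at PND4 to PND7 and 6.58% in round spermatid-like cells. There H2B genes took 55.9%, H4 genes 27.8% and H3 genes 9.09%.

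Leaving out the window with a single pool, of the 63 members with any UMI 25 had their highest mean in E6.5 to E7.5 embryos, 5 at E8.5, and 11 in somatic-like cells of E13.5 to E14.5. Another 7 were highest in germ-like cells of PND8 to PND10 and 4 at PND4 to PND7. Another 4, Hist1h2bp, Hist1h4a, Hist1h3a and Hist1h1t, were highest in round spermatid-like cells, Hist1h2ba and Hist1h2aa in spermatocyte-like cells of PND12 to PND14, and Hist2h2be in those of PND30 to adult. The number of members with a mean of at least 1 CPM was 58 at E9.5 to E10.5, 25 at E15.5 to PND0, 59 at PND4 to PND7, 20 in late spermatocyte-like and 20 in round spermatid-like cells. Of the 63 members, 4 had pools in their highest window that did not overlap with those of the next highest one, namely Hist1h2bc, Hist1h2bp, Hist1h4a and Hist1h2ba. The other 59 peaks overlapped with the next window. The windows were picked from the same means, and the share over all genes was not computed, so these counts describe the members only. No UMI was counted for Hist2h2bb, Hist2h3b, Hist2h2aa1 and Hist2h2aa2, which allows at most 0.000854 CPM of counted UMIs each over all wild-type cells by counting error. Reads shared between copies may not have been counted, so for Hist2h2aa1 and Hist2h2aa2, whose stretches after the stop codon have the same length and stem-loop, this is no limit on expression.

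The first germ cell comparison asked how the genes differed between migrating germ cells and those that had reached the gonad. Of the 5 earlier pools 4 had no recorded sex, so the comparison sets male cells mostly against cells of unrecorded sex. Between E11.5 to E12.5 (4 pools) and E9.5 to E10.5 (5 pools), 0 of the 63 members tested passed edgeR's quasi-likelihood test with Benjamini-Hochberg adjustment in either direction, and 18 had an unadjusted p under 0.05. DESeq2 called 5, all lower. Over all 27126 genes tested, edgeR called 1.54% higher and 1.36% lower, and DESeq2 called 761 genes higher and 867 lower. The median log2 difference of the members was -1.33 against 0.00 for all genes, and 61 of the 63 were negative. H2B genes had a median of -1.81 on this scale, with 8 of 17 at an unadjusted p under 0.05. Among the S-phase genes 0 of 20 were called in either direction, with a median of -0.10. Hist1h2ba differed by -2.66 (adjusted p = 0.109 by edgeR's quasi-likelihood test) and Hist1h1t by 0.18.

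Single H2B and H2A genes outside the Hist1h2ao group had a steep course within this period. Hist1h2bc, an H2B gene whose 3′ end was classed as without a stem-loop, stood at 142.6 and 162 CPM at E11.5 and at 44.9 and 35.6 CPM at E12.5. Hist3h2a, an H2A gene annotated with a long 3′ part and AATAAA, stood at 19.6 and 12.4 CPM at E11.5 and at 7.68 and 5.20 CPM at E12.5. In both genes the 2 ages did not overlap. Hist1h1b, a linker histone gene of dividing cells, also split by age, with 28.04 and 28.3 CPM at E11.5 and 10.1 and 6.25 CPM at E12.5.

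The next comparison covered the fetal stop of division. In germ-like cells of E15.5 to PND0 (9 pools) against E11.5 to E12.5 (4 pools), 52 of the 63 members tested were lower and 2 were higher by edgeR's quasi-likelihood test at an adjusted p under 0.05. Over all genes tested, 18.2% were lower and 43.6% were higher, and the split of 11830 higher to 4946 lower genes became 13866 to 3181 with library size alone. The median log2 change was -2.55 over members and 1.56 over all genes, a median that was 2.04 with library size alone. The lower members were 5 of 6 H1, 14 of 16 H2A, 13 of 17 H2B, 11 of 11 H3 and 9 of 13 H4 genes tested.

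Hist1h1b was at 28.04, 28.3, 10.1 and 6.25 CPM in the 4 earlier pools. In the 9 later pools its lowest value was 0, its median 0.224 and its highest 2.62 CPM, without overlap. It fell by 5.49 on the log2 scale (SE 0.81, adjusted p = 2.92e-07 by edgeR's quasi-likelihood test). Hist1h2bl, an H2B gene, had UMIs in only 2 of the 9 later pools and fell by 6.33 (SE 0.91, adjusted p = 1.66e-07 by edgeR's quasi-likelihood test), from 1.73 ± 0.721 to 0.0273 ± 0.0678 CPM. Hist1h3b, an H3 gene, fell by 5.30 (SE 0.95, adjusted p = 9.18e-06 by edgeR's quasi-likelihood test), from 3.50 ± 1.96 to 0.113 ± 0.169 CPM. The abundant gene Hist1h2ao changed less. It stood at 865, 504, 638 and 565 CPM in the earlier pools and from 115.4 to 418 CPM in the later ones with a median of 261 CPM, again without overlap, and fell by 1.65 (SE 0.34, adjusted p = 8.89e-05 by edgeR's quasi-likelihood test).

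Both members that rose were the shared-promoter pair of testis variants. Hist1h2aa had no UMI in any of the 9 germ-like pools from E9.5 to E12.5 and was between 0 and 2.13 CPM in the 9 pools of E15.5 to PND0, with 1 of them at 0 (adjusted p = 0.000113 by edgeR's quasi-likelihood test). Hist1h2ba stood at 0, 0.0404, 0.0966 and 0.0782 CPM before and at 0 to 0.953 CPM after, with overlap, and rose by 2.49 (SE 0.88, adjusted p = 0.0137 by edgeR's quasi-likelihood test). The call of Hist1h2ba was lost without replicate 1 of every time-point (adjusted p = 0.247) and without replicate 2 (adjusted p = 0.0939). Hist1h1t was not called, at 0.0915 ± 0.146 against 0.222 ± 0.444 CPM. These levels were near 0, and 43.6% of all genes were called higher here, with a median change of 1.56. Summed spermatocyte markers were also higher in the later sums, at 445 ± 72.9 against 65.9 ± 20.3 CPM. Round spermatid markers stood at 83.7 ± 38.7 against 4.85 ± 2.15 CPM. The part of such transcripts in the values of the pair was not tested.

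Among the companion lists, S-phase and processing genes were mostly lower in this window, and histone genes outside the clusters went both ways. Of 20 S-phase genes 18 were lower, among them Rrm2, a subunit of ribonucleotide reductase, which fell by 4.92 on the log2 scale from 248 ± 52.7 to 11.2 ± 3.61 CPM (adjusted p = 2.88e-16 by edgeR's quasi-likelihood test). Of 14 genes for histone mRNA processing and transcription 10 were lower. Slbp fell by 1.33 (SE 0.14, adjusted p = 2.34e-10 by edgeR's quasi-likelihood test), from 414 ± 35.5 to 226 ± 43.3 CPM, and Npat, the coactivator of histone gene transcription, fell by 0.76 (adjusted p = 0.0067). Of 17 histone genes outside the clusters 7 were lower and 5 higher. H2afx, the variant phosphorylated at DNA breaks, fell by 2.78 from 425 ± 73.3 to 80.8 ± 43 CPM, while the replacement H3 gene H3f3b differed by 0.02 and was not called. Somatic marker levels were also higher in the later sums, as given above, and somatic-like sums of E15.5 to E18.5 held 2773 ± 963 CPM of the histone set. The part of somatic transcripts in these values was not tested.

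After birth the change ran the other way. In germ-like cells of PND4 to PND7 (8 pools) against E15.5 to PND0, 57 of 63 members tested were higher and 1 was lower by edgeR's quasi-likelihood test, against 18.1% higher and 38.4% lower among all genes. The split of 4917 higher to 10411 lower genes became 3431 to 12300 with DESeq2-type (RLE) size factors in edgeR. The median log2 change was 3.41 over members and -0.63 over all genes. All 6 H1 genes tested, 15 of 16 H2A, 15 of 17 H2B, 10 of 11 H3 and 11 of 13 H4 genes were higher.

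Hist1h2bk, an H2B gene, was at 0.074 to 2.38 CPM with a median of 0.267 CPM in the fetal and newborn pools and at 39.6 to 63.5 CPM with a median of 48.1 CPM at PND4 to PND7. The windows were far apart, and Hist1h2bk rose by 6.65 (SE 0.67, adjusted p = 6.87e-11 by edgeR's quasi-likelihood test). Hist1h2bl rose by 7.80 (SE 0.91, adjusted p = 2.15e-09) to 5.43 ± 2.83 CPM, and Hist1h2bm rose by 6.85 (SE 0.89, adjusted p = 3.01e-08) from 0.293 ± 0.465 to 31 ± 8.34 CPM, both by edgeR's quasi-likelihood test. Hist1h3a, a member of the group that ends near its stem-loop, stood at 0 to 1.75 CPM before birth and at birth, and at 23.98 to 71.4 CPM at PND4 to PND7. Hist1h2bc was the member that was lower, at 15.2 ± 2.27 against 46 ± 46.3 CPM, and its fall of 1.42 (SE 0.42, adjusted p = 0.00389 by edgeR's quasi-likelihood test) was lost when each time-point was its own group (adjusted p = 0.0952) and without replicate 1 (adjusted p = 0.0652) or replicate 2 (adjusted p = 0.0848). Its 2 pools of E15.5 held 139.996 and 103.8 CPM and its later fetal and newborn pools 9.07 to 50.5 CPM.

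Examples chosen after their values were seen differed in how the level at PND4 to PND7 stood to that at E9.5 to E10.5. Hist1h1b stood at 1.27 to 6.55 CPM at PND4 to PND7, below the 17.9 to 29.1 CPM of E9.5 to E10.5 without overlap. Hist3h2a stood at 1.58 to 6.64 CPM, below its 20.4 to 35.5 CPM at E9.5 to E10.5. Hist1h3a and Hist1h2bk at PND4 to PND7 reached or passed their E9.5 to E10.5 ranges of 11.6 to 20.6 and 30.5 to 51.8 CPM. These windows were not compared by a test, and H2A genes made up 71.9% of the sum in the earlier and 68.5% in the later one. Among companion lists, 19 of 20 S-phase genes and 8 of 14 processing genes were higher, with Slbp up by 1.21 (adjusted p = 6.76e-11 by edgeR's quasi-likelihood test) to 428 ± 43.8 CPM.

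The only germ-like sum of PND12 to PND14 came from 10 cells of 1 pool. Against PND4 to PND7, 0 of 63 members were called by edgeR's quasi-likelihood test, with 5 at an unadjusted p under 0.05 and 1 called lower by DESeq2, against 1.21% higher and 0.678% lower among all genes. The lone sum is assumed to vary like the other groups.

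Within pools, the histone sum of a cell was related to its S-phase sum in dividing windows. Across germ-like cells of a pool, Spearman's rho between both sums had a median of 0.62 over the 5 pools of E9.5 to E10.5, 0.57 over the 4 of E11.5 to E12.5 and 0.56 over the 8 of PND4 to PND7. It was 0.15 over the 9 pools of E15.5 to PND0, where single pools ranged from -0.03 to 0.45. In spermatocyte-like cells of PND12 to PND14 the median was 0.76 and from PND30 on it was 0.24, and in round spermatid-like cells it was -0.54. Cells of a pool share libraries and amplification, and rho between the histone sum and a cell's UMIs ranged from -0.39 to 0.53 over the pools of the windows, so these are descriptions.

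**Figure D3:**
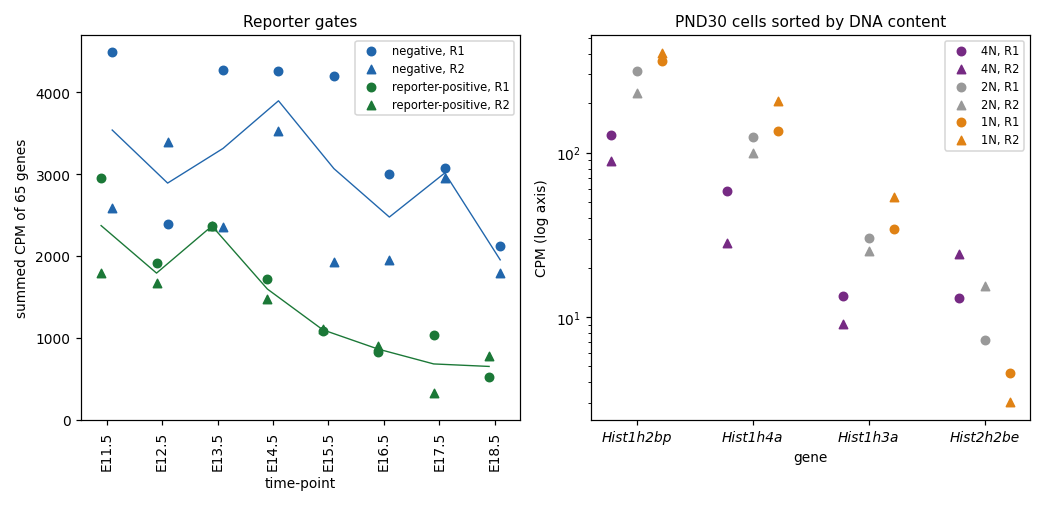
Left, summed CPM of the 65 members in cells sorted as reporter-positive or negative at E11.5 to E18.5, 1 point per pool with lines through the means. Right, CPM on a log axis of Hist1h2bp, Hist1h4a, Hist1h3a and Hist2h2be in PND30 cells sorted by DNA content as 4N, 2N and 1N, where the first 3 rise and Hist2h2be falls from 4N to 1N in both replicates.

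The reporter gates gave groups that did not rest on transcripts. Cells sorted as positive for a reporter (BVSC, BV or SC) were set against cells of the Negative gate of the same ages. At E11.5 the 65 members summed to 2951 and 1790 CPM in reporter-positive and 4490 and 2587 CPM in negative sums, and at E12.5 to 1909 and 1671 against 2390 and 3390 CPM. At E15.5 to E18.5 the 8 reporter-positive sums ranged from 325 to 1111 CPM and the 8 negative sums from 1788 to 4203 CPM, without overlap. Summed blood markers ranged from 45.1 to 3273 CPM in negative and from 13.6 to 609.9 CPM in positive sums at E11.5 to E12.5, and from 55.3 to 2443 CPM in negative and 50.8 to 423 CPM in positive sums at E15.5 to E18.5. At E11.5, E15.5, E16.5 and E17.5 the negative sum with more blood marker UMIs, that of replicate 1, also had the higher histone sum. At E12.5 and E18.5 the negative sum with more blood marker UMIs had the lower histone sum. The part of blood cells in these values was not tested. E17.5 replicate 1, which had no germ-like cells by cluster, held 1035 CPM in its reporter-positive cells.

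At E11.5 to E12.5, 4 of 60 members tested were lower in reporter-positive cells and 0 higher by edgeR's quasi-likelihood test, against 17.9% lower and 15% higher among all 20801 genes tested. The 4 were 2 without replicate 1 of every time-point and 3 without replicate 2. Over all genes the 3725 lower became 1441 and 1640 in the same settings. Hist3h2a was at 20.9, 12.4, 7.68 and 5.66 CPM in positive and at 105.9, 85.5, 66.2 and 82.1 CPM in negative sums. These ranges did not overlap, and the gene was lower by -3.06 (SE 0.55, adjusted p = 0.000128 by edgeR's quasi-likelihood test). Hist2h2be, an H2B gene, was lower by -3.91 (SE 0.96, adjusted p = 0.00286), which was lost without replicate 2 (adjusted p = 0.25). Hist1h1c, a linker histone gene that is also expressed in cells that do not divide, was lower by -2.32 (SE 0.49, adjusted p = 0.000738), which was lost without replicate 1 (adjusted p = 0.0603). The fourth was Hist1h4i, and 3 of the 4 belonged to the group of 15 with AATAAA near the annotated end. Of the S-phase genes 8 of 20 were higher and 2 lower.

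At E15.5 to E18.5, 52 of 60 members tested were lower in reporter-positive cells and 0 higher by edgeR's quasi-likelihood test, against 23.3% lower and 37.1% higher among all genes. The 7707 higher and 4837 lower genes became 9126 and 3669 with library size alone. The 52 became 21 without replicate 1 of every time-point, 29 without replicate 2, 50 without E17.5 replicate 1, and 45 without E16.5 replicate 2 and E17.5 replicate 1. Over all genes the 4837 lower became 3093, 2649, 4156 and 3744 in the same order. Hist1h1b was lower by -6.41 (SE 1.01, adjusted p = 1.08e-05 by edgeR's quasi-likelihood test), with 1.69 ± 3.92 CPM in positive and 24.9 ± 21.8 CPM in negative sums. Its highest positive value, 11.3 CPM, was that of E17.5 replicate 1, and its lowest negative value, 0 CPM, that of E18.5 replicate 2, so the ranges overlapped. Hist1h4b and Hist1h3i followed at -5.31 (SE 1.07, adjusted p = 0.000202) and -5.20 (SE 1.09, adjusted p = 0.000299), and both calls were lost without replicate 1 (adjusted p = 0.0955 and 0.0545), that of Hist1h3i also without replicate 2 (adjusted p = 0.0876). Among S-phase genes 14 of 20 were lower and 1 higher.

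The difference between gates itself grew between the 2 periods for some members. By the interaction term of edgeR's quasi-likelihood test, 9 of 60 members were lower and 0 higher, against 10.4% lower and 12.2% higher among all genes, so the share of members called lower was near that of all genes. The genes called higher and lower numbered 2546 and 2157, and 3082 and 1481 with library size alone. The 9 were 1 without replicate 1 of every time-point and 6 without replicate 2. Over all genes the 2157 lower became 739 and 615 in the same settings. The gate difference of Hist1h1e, a linker histone gene, went from -0.50 to -3.38, an interaction of -2.88 (SE 0.64, adjusted p = 0.00185 by edgeR's quasi-likelihood test), and that of Hist1h1b went from -0.96 to -6.41, an interaction of -5.45 (SE 1.42, adjusted p = 0.00691) that was lost without replicate 1 (adjusted p = 0.0689). Hist1h2ao and Hist1h2ap went from -0.45 to -1.74. Of 20 S-phase genes 17 had a lower interaction term. Neither Hist1h2ba nor Hist1h1t was among the members called in any gate comparison.

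**Figure D4:**
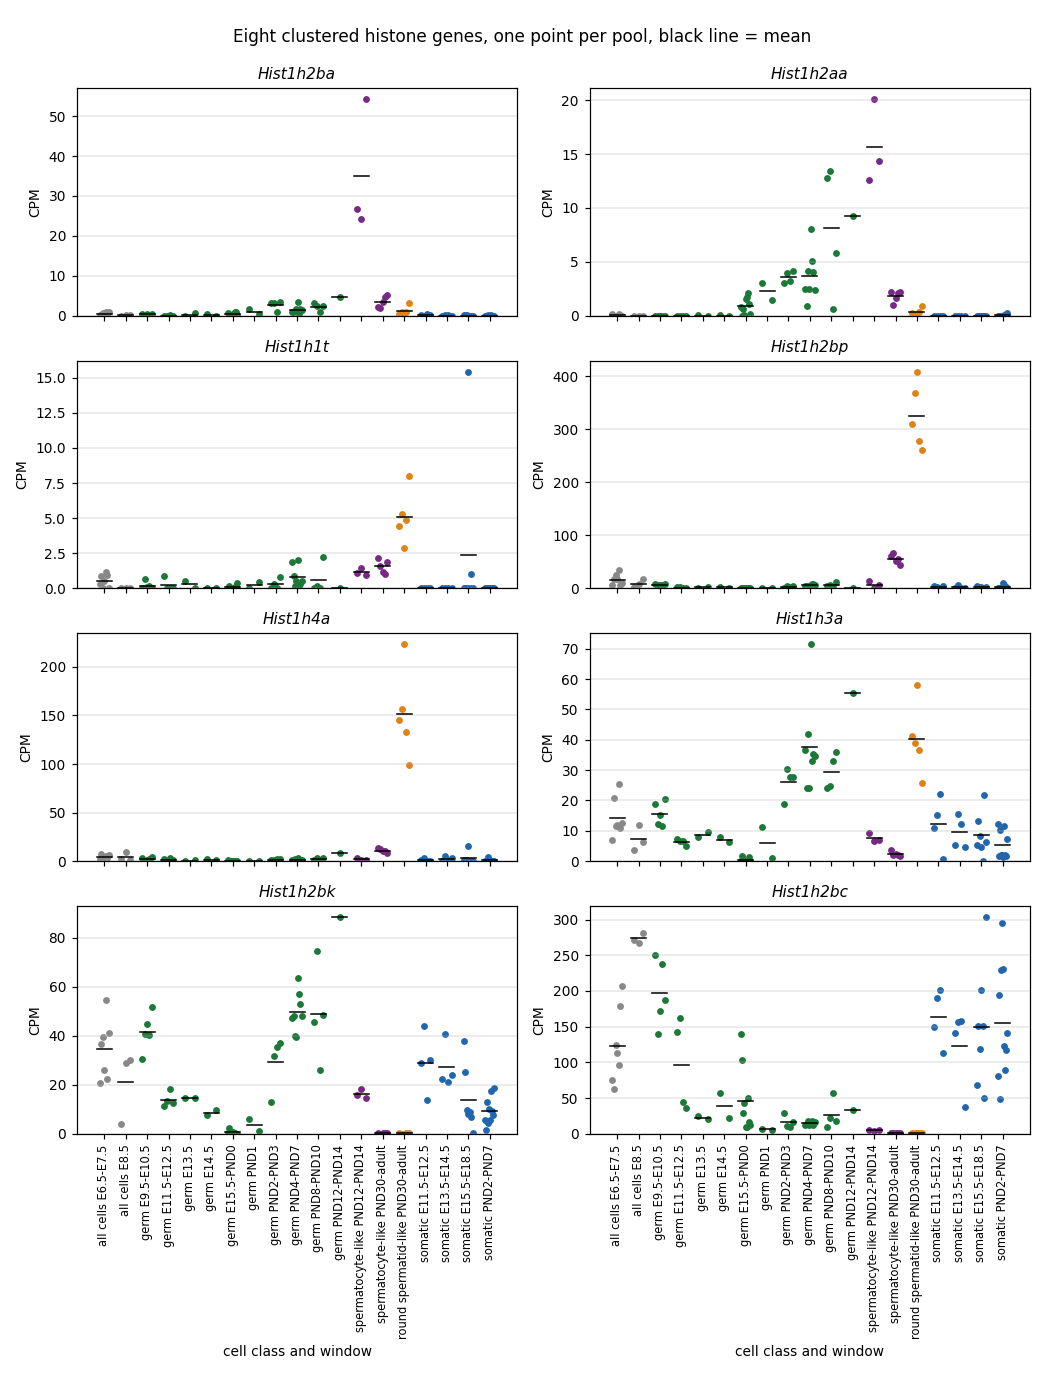
CPM per pool, 1 point each with the mean as a black line, for Hist1h2ba, Hist1h2aa, Hist1h1t, Hist1h2bp, Hist1h4a, Hist1h3a, Hist1h2bk and Hist1h2bc across the windows of time and cell class. Hist1h2ba and Hist1h2aa are highest in spermatocyte-like pools of PND12 to PND14, and Hist1h2bp and Hist1h4a in round spermatid-like pools.

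The testis H2B variant Hist1h2ba had its highest level in the first spermatocytes. In spermatocyte-like cells of PND12 to PND14 it stood at 26.6, 24.2 and 54.3 CPM. Germ-like pools of PND2 to PND3 held 3.33, 3.13, 0.939 and 3.59 CPM, those of PND4 to PND7 held 0.425 to 3.55 CPM and spermatocyte-like pools of PND30 to adult held 1.90, 3.58, 4.74, 5.27 and 2.16 CPM. No other window reached the values of PND12 to PND14. Round spermatid-like pools held 0.407 to 3.29 CPM and somatic-like pools from E11.5 to PND7 at most 0.341 CPM.

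Hist1h2aa, its H2A partner, rose earlier and more gradually. It stood at 3.05 and 1.497 CPM at PND1, at 0.922 to 8.03 CPM at PND4 to PND7 and at 12.7 and 13.4 CPM in the 2 germ-like pools of PND10, where Hist1h2ba stood at 3.33 and 2.55 CPM. In spermatocyte-like cells of PND12 to PND14 it was at 12.6, 20.1 and 14.4 CPM, which overlapped with the PND10 values. It was at 1.01 to 2.25 CPM in spermatocyte-like and 0.0452 to 0.902 CPM in round spermatid-like cells from PND30 on, and at most 0.226 CPM in somatic-like pools. Hist1h2ba, which was left out of the clustering, was among the 10 leading genes of a spermatocyte-like cluster of PND10 to PND14.

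Hist1h1t, the testis linker histone, was low throughout. Round spermatid-like pools held 5.27, 2.85, 4.89, 8.00 and 4.47 CPM, and spermatocyte-like pools of the same ages 1.61, 1.14, 1.05, 1.91 and 2.18 CPM. The 2 classes did not overlap, but the difference of 1.82 on the log2 scale was not called (SE 1.36, adjusted p = 0.30 by edgeR's quasi-likelihood test). Germ-like pools of PND4 to PND7 held 0.0284 to 2.01 CPM, against 0 to 0.426 CPM at E15.5 to PND0, and the rise of 3.19 (SE 1.12, adjusted p = 0.0143 by edgeR's quasi-likelihood test) was lost without replicate 1 (adjusted p = 0.163) or replicate 2 (adjusted p = 0.0541). Among somatic-like pools it was 0 in all but E18.5 replicate 1 at 1.02 CPM and E17.5 replicate 1 at 15.4 CPM, a sum of 12 cells. In the sorted gates of E17.5 replicate 1 it was 0 CPM in negative and 2.14 CPM in reporter-positive cells. The UMIs of that somatic-like sum thus came from cells sorted as reporter-positive.

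Spermatocyte-like cells of PND12 to PND14 (3 pools) were set against germ-like cells of PND4 to PND7 after the data had been seen. By edgeR's quasi-likelihood test 5 of 63 members were higher and 4 lower, against 17.6% and 8.75% of 27260 genes. Without replicate 1 of every time-point 4 members were called and without replicate 2 none, with 1 spermatocyte-like pool left, and DESeq2 called 5 higher and 14 lower. Hist1h2ba rose by 4.65 (SE 0.68, adjusted p = 4.47e-07), Hist3h2a by 3.50 (SE 0.44, adjusted p = 1.77e-08) to 40.7 ± 18.8 CPM, and Hist1h2aa by 2.13 (adjusted p = 0.045), all by edgeR's quasi-likelihood test. Hist2h2be, at 5.08, 0.146 and 2.06 CPM in the spermatocyte-like pools, was called higher by 2.52 (SE 0.80, adjusted p = 0.0145) and was at -0.84 without replicate 2. Hist1h1b fell by 5.60 (SE 1.33, adjusted p = 0.00108), Hist1h3c by 2.63 (SE 0.72, adjusted p = 0.00461) from 73.3 ± 17.3 to 11.499 ± 0.239 CPM, and Hist1h2ae by 2.36 (SE 0.64, adjusted p = 0.00408) by edgeR's quasi-likelihood test.

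Most of the family was low in later spermatocyte-like cells, among which adult replicate 2 was the only adult pool. Between spermatocyte-like cells of PND30 to adult (5 pools) and germ-like cells of PND4 to PND7, 48 of 63 members were lower and 6 higher by edgeR's quasi-likelihood test, against 27.8% lower and 40.1% higher among all genes. The split of 10870 higher to 7538 lower genes turned to 8091 and 10406 with library size alone, which moved the median of all genes from 0.40 to -0.36. The members' median was -4.50. Hist1h2ae, an H2A gene, fell by 7.33 (SE 0.68, adjusted p = 5.0e-13) from 81.9 ± 26.9 to 0.266 ± 0.262 CPM, and Hist1h2ak and Hist1h3b each fell by 7.01 (SE 0.84, adjusted p = 6.31e-10, and SE 1.25, adjusted p = 3.51e-06) by edgeR's quasi-likelihood test. Hist1h2ao, at 495 to 816 CPM in spermatogonia, was at 10.2, 2.28, 25.6, 11.1 and 15.9 CPM.

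The 6 members that were higher were Hist2h2be, Hist3h2a, Hist1h2bp, Hist1h4a, Hist1h4h and Hist1h2ba. Hist2h2be stood at 15.4, 22.1, 29.4, 14.7 and 26.8 CPM, against 0.0567 to 1.61 CPM in the 8 germ-like pools. It was higher in every pool and rose by 6.56 (SE 0.78, adjusted p = 5.61e-10 by edgeR's quasi-likelihood test). Hist3h2a, at 34.6 to 44.7 CPM against 1.58 to 6.64 CPM, rose by 4.26 (SE 0.42, adjusted p = 2.15e-12), and Hist1h2bp, at 44.7 to 67.4 CPM against 4.96 to 8.26 CPM, rose by 4.12 (SE 0.57, adjusted p = 1.8e-08), both by edgeR's quasi-likelihood test. The rise of Hist1h2ba by 2.17 (SE 0.65, adjusted p = 0.00327) was lost with library size alone (adjusted p = 0.108) and without replicate 2 (adjusted p = 0.187).

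Among these 6, Hist2h2be, Hist3h2a, Hist1h2bp and Hist1h4a had AATAAA near the annotated end, Hist1h4h ended near its stem-loop and Hist1h2ba was annotated to the stop codon. Of the 15 members with AATAAA near the annotated end, 4 were higher and 7 lower, and of the 20 tested that ended within 100 bases of the stem-loop, 1 was higher and 17 lower, and this difference between classes of end was not tested. The sum of the AATAAA group was 158 ± 45.2 CPM at PND4 to PND7, 134.9 ± 10.7 CPM in late spermatocyte-like and 507 ± 102.8 CPM in round spermatid-like cells. The sum of the group ending near the stem-loop was 1854 ± 361, 54.8 ± 21.7 and 75.8 ± 12.9 CPM in the same windows. Round spermatid-like pools held between 392 and 660 CPM for the AATAAA group, above every late spermatocyte-like pool at 120.1 to 147.2 CPM. Of the 15 members 2 made up most of it there, Hist1h2bp with 325 ± 62.4 CPM and Hist1h4a with 152 ± 45.6 CPM. The part that capture by oligo(dT) has in these sums was not tested.

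Within spermatocytes, the later pools (PND30 to adult) differed from those of PND12 to PND14 in 46 lower and 3 higher members of 63, against 18.2% lower and 29.4% higher genes, in a comparison also added after the data had been seen. The 8020 higher and 4952 lower genes turned to 3831 and 7691 with library size alone. The 3 higher members were Hist2h2be at 4.03 (SE 1.12, adjusted p = 0.00292), Hist1h2bp at 3.84 (SE 0.90, adjusted p = 0.000522) and Hist1h4a at 3.35 (SE 1.07, adjusted p = 0.00901) by edgeR's quasi-likelihood test, and the last was lost with library size alone (adjusted p = 0.0609) and without replicate 2 (adjusted p = 0.111). Hist1h2bj fell by 5.36 (SE 0.96, adjusted p = 1.22e-05) from 26.9 ± 5.34 to 0.354 ± 0.267 CPM, Hist3h2ba by 5.52 (SE 1.33, adjusted p = 0.000711) and Hist1h3b by 5.43 (SE 1.23, adjusted p = 0.000356) by edgeR's quasi-likelihood test. Hist1h2ba fell by 2.47 (SE 0.76, adjusted p = 0.00722), which was lost without replicate 2 (adjusted p = 0.238).

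Round spermatids showed high levels of a few H2B, H4 and H3 genes. Against spermatocyte-like cells of the same ages (5 pools each), 14 of 63 members were higher and 4 lower by edgeR's quasi-likelihood test, against 27.7% higher and 14.8% lower among all genes, and the share of members called higher was below that of all genes. The 7513 higher and 4024 lower genes became 8555 and 2843 with RLE size factors in edgeR, which gave 16 higher and 1 lower member. Without replicate 1 of every time-point 8 members were called, and without replicate 2 it was 7. Over all genes, 4426 were higher and 3910 lower without replicate 1, and 1760 and 2156 without replicate 2. The higher members were 5 of 11 H3, 4 of 17 H2B and members of the other 3 types.

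Hist1h2bp, an H2B gene with AATAAA near an annotated end, stood at 369, 409, 278, 261 and 310.0 CPM in round spermatid-like cells and at 67.4, 51.4, 54.8, 44.7 and 61.2 CPM in spermatocyte-like cells. The classes were apart, and it rose by 2.77 (SE 0.64, adjusted p = 0.000513 by edgeR's quasi-likelihood test). Hist1h4a, the H4 gene with a pair of full CRE motifs, stood at 157, 223, 133.3, 98.9 and 145.7 CPM against 7.90 to 13.4 CPM and rose by 4.04 (SE 0.88, adjusted p = 0.000216). Hist1h3a, which lies next to it at chr13:23761853-23762386, stood at 38.8, 58.1, 36.6, 25.8 and 41.1 CPM against 1.72 to 3.53 CPM and rose by 4.35 (SE 0.82, adjusted p = 3.03e-05). Both were apart in every pool. Hist1h2bp and Hist1h4a were at 4.96 to 8.26 and 0.913 to 3.72 CPM in spermatogonia of PND4 to PND7, whereas Hist1h3a was there at 23.98 to 71.4 CPM, within reach of its spermatid values.

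The members lower in round spermatids were Hist1h2aa, which fell by 2.45 (SE 0.90, adjusted p = 0.0289), Hist1h1e, which fell by 2.09 (SE 0.62, adjusted p = 0.00549), and the copies Hist1h2ao and Hist1h2ap, which fell by 1.16 (SE 0.39, adjusted p = 0.0142 for Hist1h2ap), all by edgeR's quasi-likelihood test. The calls of Hist1h2aa and Hist1h2ap were lost with RLE size factors in edgeR (adjusted p = 0.061 and 0.0668), and that of Hist1h2aa also without replicate 1 (adjusted p = 0.175) or 2 (adjusted p = 0.107). Hist1h2ba, at 1.19 ± 1.20 against 3.53 ± 1.5 CPM, was not called (adjusted p = 0.0984). In the companion lists, the cleavage factor gene Cstf2 rose by 4.15 from 3.56 ± 1.10 to 53.9 ± 12.8 CPM, 2 of 14 processing genes were higher and 7 lower, and 3 of 20 S-phase genes were higher and 10 lower. The spermatid linker histone Hils1 stood at 483 ± 145.05 against 61.2 ± 10.6 CPM. Round spermatid markers were already present in the spermatocyte-like sums at 709.7 to 1337 CPM, against 2374 to 7515 CPM in the round spermatid-like sums, and their part in the values was not tested.

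The PND30 sort by DNA content grouped cells of the same 2 PND30 pools without clusters, so it is no independent support for the spermatid values. Of 67 members 29 passed the filter on low counts, and a member high in 1 gate only could pass through that gate. Of these, 3 were higher and 1 lower in 1N than in 4N cells by edgeR's quasi-likelihood test, against 14.1% higher and 12.4% lower among all 19167 genes tested. Hist1h2bp stood at 362 and 406 CPM in 1N, 313 and 232 CPM in 2N and 127.6 and 89.5 CPM in 4N cells and was higher in 1N than 4N by 2.00 (SE 0.28, adjusted p = 0.0103). Hist1h4a stood at 136.01 and 205 CPM in 1N and 58.8 and 28.2 CPM in 4N cells, a difference of 2.16 (SE 0.43, adjusted p = 0.0147), and Hist1h3a at 34.1 and 53.7 against 13.4 and 9.01 CPM, a difference of 2.16 (SE 0.44, adjusted p = 0.0151). Hist2h2be ran the other way, at 4.59 and 3.03 CPM in 1N, 7.20 and 15.3 CPM in 2N and 13.02 and 24.1 CPM in 4N cells, a difference of -2.13 (SE 0.51, adjusted p = 0.024). All 4 p-values are from edgeR's quasi-likelihood test. Hist1h1t (0.67, adjusted p = 0.489) and Hist1h2ba (-1.01, adjusted p = 0.446) were not called.

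**Figure D5:**
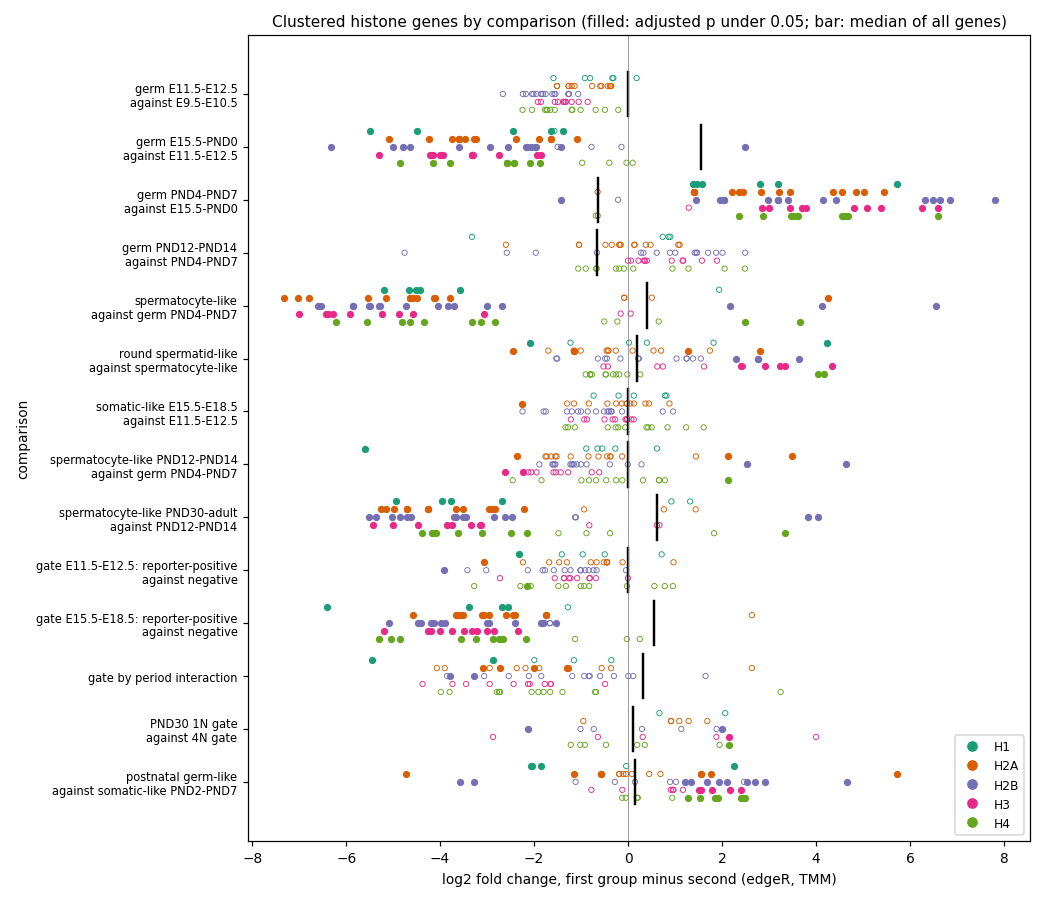
Log2 fold change of each tested member by comparison, coloured by histone type, with filled points for an adjusted p under 0.05 and a bar at the median of all genes tested. Members at 0 in a group are not drawn, and most members lie below 0 for E15.5 to PND0 and for spermatocyte-like cells and above 0 for PND4 to PND7.

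Few members were called different in somatic-like cells of the gonad over the same fetal days. The somatic-like sums of the 65 members were 2953 ± 545 CPM at E11.5 to E12.5 (n = 4), 3515 ± 844 CPM at E13.5 to E14.5 (n = 4), 2773 ± 963 CPM at E15.5 to E18.5 (n = 7) and 2411 ± 587 CPM at PND2 to PND7 (n = 10). Between E15.5 to E18.5 and E11.5 to E12.5, 1 of 63 members was higher and 1 lower by edgeR's quasi-likelihood test, against 5.98% and 5.68% of all genes. Of the members 8 had an unadjusted p under 0.05. The somatic-like sum of E11.5 replicate 1 (62 cells) held somatic markers at 710 CPM, against 2908, 3341 and 3917 CPM in the other early sums. The Negative gate of that pool held 30 kept cells, so this sum also held reporter-positive cells. Germ markers reached 1329.5 CPM in the early window, with a median of 276 CPM. The part of germ cells in the early sums was not tested. Without replicate 2 of every time-point 0 members were called, with 272 genes higher and 546 lower over all. Hist1h2ak was the lower one at -2.27 (SE 0.65, adjusted p = 0.0171), with 2.58 ± 2.15 against 12.6 ± 12.9 CPM, and it was lost without replicate 2. Hist1h1t was the higher one (adjusted p = 0.0446 by edgeR's quasi-likelihood test), and its call was lost without E17.5 replicate 1 (adjusted p = 0.369). In that pool its UMIs came from cells sorted as reporter-positive, as given above. The difference between this change and that of germ-like cells was tested in the sorted gates above.

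In postnatal testes of PND2 to PND7, 10 pools gave both a germ-like and a somatic-like sum, and PND2 replicate 2 and PND4 replicate 1 gave a germ-like sum alone. By edgeR's quasi-likelihood test 26 of 60 members tested were higher and 9 lower in germ-like (12 pools) than in somatic-like cells (10 pools), against 37.2% higher and 31.7% lower among all 16021 genes tested. The 5958 higher and 5081 lower genes became 7510 and 3874 with library size alone. The 35 members called were 32 without replicate 1 of every time-point and 23 without replicate 2. Over all genes, 5384 were higher and 4027 lower without replicate 1, and 3948 and 3383 without replicate 2. Hist1h2aa, at 3.68 ± 1.76 against 0.0527 ± 0.0887 CPM, was higher by 5.73 (SE 0.65, adjusted p = 6.79e-08), Hist1h2ba, at 1.91 ± 1.15 against 0.0429 ± 0.0801 CPM, by 4.65 (SE 0.72, adjusted p = 5.69e-06), and Hist1h2bl by 2.91 (SE 0.73, adjusted p = 0.00119), the last of which was lost without replicate 1 (adjusted p = 0.0665).

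The 9 members lower in germ cells comprised 3 with AATAAA near the annotated end, 2 that ended near the stem-loop, 2 that ran further past it, 1 annotated to the stop codon and 1 with no stem-loop found. Hist3h2a stood at 0.793 to 6.64 CPM in the 12 germ-like pools and at 38.2 to 116.3 CPM in the 10 somatic-like pools, without overlap, and was lower by -4.72 (SE 0.26, adjusted p = 5.69e-13 by edgeR's quasi-likelihood test). Hist1h2bc stood at 9.25 to 29.2 CPM against 49.3 to 296 CPM, also without overlap, and was lower by -3.57 (SE 0.25, adjusted p = 2.08e-11). Hist2h2be was lower by -3.28 (SE 0.53, adjusted p = 1.11e-05). The other 6 were Hist1h1b, Hist1h1c, Hist1h1e, Hist1h2ac, Hist1h2ao and Hist1h2ap. Of the 20 S-phase genes 12 were higher and 2 lower. Somatic-like sums of these pools held germ markers at 202 to 638 CPM and germ-like sums held somatic markers at 112.1 to 817 CPM, and their part in these values was not tested.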

How the data were processed

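Single cells were sequenced by STRT-seq, with 3′-end complementary DNA primed by oligo(dT). The authors demultiplexed reads with UMI-tools, trimmed them with seqtk, aligned them to mm10 with STAR, assigned them with featureCounts and deposited unnormalized UMI counts per gene and cell. The base calling software was CASAVA 1.8 per the labels. The labels give each library only a name, so time-point, replicate, genotype and sorting gate came from the deposited table of cells, and 1136 cells of the other genotype were not used. Cells with over 2000 genes and between 10000 and 1000000 UMIs were kept (11598 of 11896 wild-type cells). No doublet caller was run.

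Cells were clustered with scanpy 1.11.5 (1000 variable genes, 30 components, 20 neighbours, resolution 0.3) without the members and the companion gene lists, 122 genes in all. Clusters were named from marker genes, and clusters led by genes that went against their name stayed unnamed after they had been seen. Counts were summed per time-point, replicate and class, or per gate, with at least 10 cells, and pools of different time-points in a window counted as replicates. Cells of E6.5 to E8.5 were summed over all classes. Differences were tested across all genes with edgeR 4.0.16 (TMM, glmQLFit and glmQLFTest, R 4.3.3), Benjamini-Hochberg adjusted at 0.05. Standard errors are the absolute log2 fold change divided by the square root of F. The test was tried on simulated data, and DESeq2 1.42.0 was an alternative. The limit that a total of 0 allows was taken as 3 counts and covers counting error only.

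Same-numbered gates and classes of a time-point came from the same replicate, which is where their pairing comes from. The paper lists 1 testicular gonad per replicate after birth and several embryos or gonads before. The correlation of replicate differences over genes between paired sums was -0.079 to 0.329 for reporter gates at 6 time-points, 0.026 to 0.303 for postnatal classes at 4 and -0.055 for 1N and 4N cells.

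Genes named were Hist1h1t and Hist1h2ba throughout, the 3 largest rises and 3 largest falls per comparison, the 10 members with the highest mean, and up to 4 called genes of each companion list. Other members are named as examples chosen after their values were seen. The members, lists and windows were chosen with earlier results of these data known. The spermatocyte comparisons of PND12 to PND14 and the settings without E16.5 replicate 2, E17.5 replicate 1 or the BV gate were added after seeing the data.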

Additional observations from a re-analysis of the deposited data

Results flagged for a closer look

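Of 166 groups of 4 to 10 pools, 17 held a pool far from the others by Dixon's criterion, where chance flags about 1 in 20. Hist1h1t, which was at or near 0 in most pools, gave 5 of them, namely 0.693 CPM in E10.5 replicate 2, 0.889 in E11.5 replicate 1, 0.426 in PND0 replicate 2, 2.25 in PND8 replicate 2 among germ-like sums and 15.4 CPM in the somatic-like sum of E17.5 replicate 1. Hist1h2ba stood out at 3.55 CPM in germ-like cells of PND6 replicate 1, at 3.29 CPM in round spermatid-like cells of PND35 replicate 2 and at 0.239 CPM in somatic-like cells of PND4 replicate 2.

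In germ-like sums, Hist1h2bj was 5.69 CPM in PND0 replicate 1, Hist1h2ao and Hist1h2ap were 863 and 863 CPM in PND3 replicate 1, Hist1h3c was 25.9 CPM in PND2 replicate 1 and Hist1h4n was 30.8 CPM in PND8 replicate 1. In round spermatid-like sums, Hist1h1e was 0.398 CPM in adult replicate 2 and Hist1h4i 2.78 CPM in PND35 replicate 2. In somatic-like sums, Hist1h2bc was 37.9 CPM in E14.5 replicate 2 and Hist1h3c 33.7 CPM in PND6 replicate 1.

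The difference between reporter-positive and negative cells changed between E11.5 to E12.5 and E15.5 to E18.5 for 9 of 60 members, all lower, by the interaction term of edgeR's quasi-likelihood test. Of all genes 10.4% were called lower, and the 9 became 1 without replicate 1 of every time-point and 6 without replicate 2. The 2157 lower genes over all became 739 and 615 in these settings. On the log2 scale the later difference minus the earlier one was -5.45 for Hist1h1b, -3.80 for Hist1h2bj, -3.28 for Hist1h2bk, -3.10 for Hist1h2ad and -2.88 for Hist1h1e. It was -2.72 for Hist1h2ae, -2.003 for Hist1h2ag, -1.29 for Hist1h2ao and -1.29 for Hist1h2ap, with adjusted p between 0.00185 (Hist1h1e) and 0.0266 (Hist1h2bj).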

How the results depend on the processing

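Of the counts of called members under alternatives, 9 were over 1.5 times higher than reported and 14 over 1.5 times lower, and the rest lay within that range. Of 589 values of named members 539 kept their direction and side of the threshold, 49 lost the call and 1 reversed. The reversed value was Hist2h2be in spermatocyte-like cells of PND12 to PND14, at -0.84 without replicate 2 and 2.72 without replicate 1. The causes were not tested.

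With DESeq2 the members called numbered 5 for germ-like cells of E11.5 to E12.5, against 761 genes higher and 867 lower over all. They numbered 19 for spermatocyte-like cells of PND12 to PND14, against 4345 genes higher and 3575 lower. The gates of E11.5 to E12.5 gave 9, against 3651 and 4384 genes. The interaction gave 16, against 5281 and 2064 genes, and the PND30 gates gave 7, against 4076 and 3373 genes. Without a filter on low counts the gates of E11.5 to E12.5 gave 9, against 3462 genes higher and 3709 lower. With each time-point its own group, germ-like cells of E11.5 to E12.5 gave 5, against 571 genes higher and 546 lower. Fetal somatic-like cells gave 5 in that setting, against 1308 genes higher and 1351 lower. Fetal somatic-like cells gave 1 with at least 20 cells per sum, 1 with no filter on cells, 1 without E17.5 replicate 1 and 1 without E16.5 replicate 2 as well. In the same order, the genes called higher and lower over all were 1547 and 1441, 1996 and 1267, 1432 and 1414, and 1352 and 1381.

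Leaving out 1 replicate number at a time gave 0 to 0 members for E11.5 to E12.5 and for PND12 to PND14 germ-like cells, 41 to 43 for E15.5 to PND0, 47 to 47 for PND4 to PND7, 51 to 53 for spermatocyte-like cells, 7 to 8 for round spermatid-like cells and 0 to 2 for fetal somatic-like cells. It gave 0 to 4 for spermatocyte-like cells of PND12 to PND14, 37 to 41 for later against earlier spermatocyte-like cells, 2 to 3 and 21 to 29 for the gates, 1 to 6 for the interaction and 23 to 32 for postnatal classes. In the PND30 gates it leaves 1 pool a group and no test. Among the other comparisons the number of all genes called was also smaller in every fit that left out a replicate number. Germ-like cells of PND12 to PND14 gave no value without replicate 1, with 20 cells or at resolution 1.

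With the replicate block for paired sums, the members called were 4 and 51 for the gates, 10 for the interaction, 4 for PND30 and 35 for postnatal classes, so the pairing moved no count by over 1.5 times.

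Without Hist1h2ao, Hist1h2ap and Hist1h2ag the set sum was 1352 CPM at E6.5 to E7.5 and 1126 at E8.5, and in the germ-like windows from E9.5 to E10.5 up to PND12 to PND14, in order of age, 1099.7, 551, 528, 379.9, 136.7, 219.6, 717, 922, 929.8 and 1470.6 CPM. It was 461 and 178 CPM in earlier and later spermatocyte-like cells and 1063, 1133, 920.2 and 696 CPM in the 4 somatic-like windows in order of age. As a mean over cells the sum was 2605 CPM at E13.5 and 2359 CPM at PND12 to PND14, where it was 2749.98 CPM with no filter on cells. Sums of few cells, such as those of 10 to 13 cells, limit the levels of members near 0.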
